A study of Homo sapiens with 6 samples.

Results

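The clustered protocadherin genes are the 53 protein-coding genes whose symbols start with PCDHA, PCDHB or PCDHG, out of 20163 protein-coding genes and 64449 annotated genes. They lie in a row on chromosome 5 of the hg19 build, all on the plus strand and within a span of 740 kb. They were taken by symbol and position and not by any measured value, although earlier results of these data were known. The alpha cluster has 15 genes (140165721 to 140391932), the beta cluster 16 (140430959 to 140628933) and the gamma cluster 22 (140710081 to 140892544). HCT116, an established human colorectal cancer line, carried either a scramble shRNA (HCT116/Scrsh, the control cells) or an shRNA directed at KDM3A together with KDM3B (HCT116/ABsh-1, the depleted cells). The deposited labels speak of siRNA where the paper speaks of shRNA. Chromatin was immunoprecipitated with an antibody to KDM3B (Millipore 09-816) or to dimethylated lysine 9 of histone H3 (H3K9me2, Abcam ab1220), and the DNA was sequenced and compared with input DNA. Each of the 4 ChIP libraries gave 1 list of regions, so each cell population is represented by 1 library per antibody, and the cell populations could not be compared by a test. The 2 input libraries were not analysed here. The lists hold no expression values, so the depletion of KDM3A and KDM3B cannot be checked in them, and they state no read numbers, so where a list has no region, none was detectable at a depth that is unknown.

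Clustered protocadherins are cell-surface proteins of the cadherin superfamily, known above all from neurons, where cells that display the same combination recognise each other. Each alpha or gamma gene is a promoter and a large variable exon, which encodes the extracellular repeats, the membrane-spanning stretch and the first cytoplasmic residues, and this exon is spliced to short constant exons shared by the whole cluster. Beta genes have no constant exons. Most variable exons carry in their promoter a conserved element around the letters CGCT, at which the architectural protein CTCF is known to bind, and single cells choose among these promoters. The C-type genes PCDHAC1, PCDHAC2, PCDHGC3, PCDHGC4 and PCDHGC5 stand at the ends of the alpha and gamma clusters and are regulated differently from the others. H3K9me2 is a histone mark of silent chromatin, and KDM3A and KDM3B are demethylases that remove it.

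The sequences of the 3 sites at which H3K9me2 regions were called next to a member before depletion are shown because they recur, wider, after it. Sequence is from the hg19 genome, written 5′ to 3′ with every CpG in capitals. The first 2 lie inside variable exons and the last in the intron just past the variable exon of PCDHGC5. They hold 10, 18 and 24 CpG.
PCDHAC2 (chr5:140346701-140346800, plus strand): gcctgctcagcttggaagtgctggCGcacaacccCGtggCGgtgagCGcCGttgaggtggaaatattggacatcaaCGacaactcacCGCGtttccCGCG
PCDHGC3 (chr5:140856201-140856400, plus strand): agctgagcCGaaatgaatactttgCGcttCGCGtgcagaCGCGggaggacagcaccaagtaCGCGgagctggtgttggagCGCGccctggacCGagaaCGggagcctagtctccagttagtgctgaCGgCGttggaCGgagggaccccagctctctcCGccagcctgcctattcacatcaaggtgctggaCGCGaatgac
PCDHGC5 (chr5:140871501-140871800, plus strand): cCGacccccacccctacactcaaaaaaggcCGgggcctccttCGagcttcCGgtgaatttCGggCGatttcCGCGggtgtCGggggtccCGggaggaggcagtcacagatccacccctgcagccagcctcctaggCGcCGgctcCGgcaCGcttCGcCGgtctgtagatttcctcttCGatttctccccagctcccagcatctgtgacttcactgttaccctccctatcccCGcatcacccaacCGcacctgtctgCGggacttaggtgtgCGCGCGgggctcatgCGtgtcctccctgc

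In the alpha cluster, 6 variable exons had an H3K9me2 region only after depletion. Of these, PCDHA7, PCDHA10 and PCDHA11 are shown because their regions covered corresponding letters. The regions of PCDHA7, PCDHA10 and PCDHA11 all contain the letters tggggctgtaca, and they hold 13, 10 and 35 CpG.
PCDHA7 (chr5:140215801-140215900, plus strand): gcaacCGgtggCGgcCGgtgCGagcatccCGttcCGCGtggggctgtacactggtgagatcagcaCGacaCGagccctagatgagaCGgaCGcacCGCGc
PCDHA10 (chr5:140237501-140237600, plus strand): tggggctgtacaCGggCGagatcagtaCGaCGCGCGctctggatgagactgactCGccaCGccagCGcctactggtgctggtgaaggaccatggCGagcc
PCDHA11 (chr5:140250501-140250800, plus strand): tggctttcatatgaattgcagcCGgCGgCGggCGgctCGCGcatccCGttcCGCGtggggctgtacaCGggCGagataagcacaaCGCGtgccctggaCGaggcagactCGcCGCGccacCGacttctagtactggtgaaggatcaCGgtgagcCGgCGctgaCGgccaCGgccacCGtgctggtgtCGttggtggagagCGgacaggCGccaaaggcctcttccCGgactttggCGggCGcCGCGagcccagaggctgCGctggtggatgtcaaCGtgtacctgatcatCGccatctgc

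KDM3B regions lay next to a promoter of the clusters at 2 genes. At PCDHB10 the region was called in HCT116/ABsh-1, and at PCDHGB2 in HCT116/Scrsh. Of PCDHGB2 only the 30 bases around the promoter element are shown, with the corresponding 30 bases of PCDHB10, of PCDHA10 and of the C-type gene PCDHGC3, and the element, a word of 8 letters around CGCT, is in capitals.
PCDHGB2 (chr5:140739491-140739520, plus strand): aacctctgagcGTCGCTGTtggtcaaaaga
PCDHB10 (chr5:140571875-140571904, plus strand): ggccacacggtGGCGCTGCaggctaaagag
PCDHA10 (chr5:140235428-140235457, plus strand): aagccaccggaTGTCGCTGtcgtccacaaa
PCDHGC3 (chr5:140855450-140855479, plus strand): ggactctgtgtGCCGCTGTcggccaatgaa
The whole KDM3B region of PCDHB10 follows with CpG in capitals, and it ends just before the transcription start site (TSS).
PCDHB10 (chr5:140571801-140571900, plus strand): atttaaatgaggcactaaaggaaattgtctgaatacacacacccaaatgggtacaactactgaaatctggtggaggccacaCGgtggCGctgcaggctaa

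Few clustered protocadherin genes had a KDM3B region. In control cells 4 of 53 members (7.55%, Wilson 95% confidence interval 2.97 to 17.9%) had a KDM3B region at most 5 kb from an annotated TSS, against 35.0% of all protein-coding genes. They were PCDHA13 in the alpha cluster and PCDHGA4, PCDHGB2 and PCDHGA5 in the gamma cluster, and the latter 3 share the same region. In HCT116/ABsh-1 the only such member was PCDHB10 (1.89%, 0.334 to 9.94%), against 19.2% of all protein-coding genes. A KDM3B region in control cells and none in depleted cells was found at 4 of 53 members (7.55%), against 20.0% of all protein-coding genes. Intervals cover counting error only, and neighbouring members can share a region, so members are not independent. The control list was then cut down to 8046 KDM3B regions, the number in depleted cells, highest score first. No member kept a region in control cells and PCDHB10 still had one in depleted cells, so the direction turned, on a single region. The shares of all protein-coding genes were then 19.6% in control cells and 19.2% in depleted cells.

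H3K9me2 regions were listed at 3 members before depletion and at 16 after it. In HCT116/Scrsh the 3 members were the C-type genes PCDHAC2, PCDHGC3 and PCDHGC5 (5.66%, 1.94 to 15.4%), against 10.2% of all protein-coding genes. In HCT116/ABsh-1 the 16 members made up 30.2% (19.5 to 43.5%), against 49.2% of all protein-coding genes. The 3 members of HCT116/Scrsh were among the 16, so 3 of 53 members (5.66%) had a region in both lists, against 9.06% of all protein-coding genes. The other 13 members (24.5%, 14.9 to 37.6%) had such a region in depleted cells only, against 40.2% of all protein-coding genes. The direction depends on the number of regions listed. When the H3K9me2 list of HCT116/ABsh-1 was shortened from 88855 to the 11645 regions of HCT116/Scrsh, highest score first, 2 members (PCDHAC2 and PCDHGC5) had a region in HCT116/ABsh-1 against 3 in HCT116/Scrsh, while the share of all protein-coding genes was 17.0% against 10.2%.

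After depletion, H3K9me2 regions were listed at alpha and gamma genes and at no beta gene. In HCT116/ABsh-1, 8 of 15 alpha genes (53.3%, 30.1 to 75.2%), 0 of 16 beta genes (0 to 19.4%) and 8 of 22 gamma genes (36.4%, 19.7 to 57.0%) had a region so placed. In HCT116/Scrsh the counts were 1, 0 and 2. The interval of the beta cluster does not reach that of the alpha cluster or the share of all protein-coding genes, but since members share regions and there was 1 library, these counts are a description and the difference was not tested. KDM3B regions of HCT116/Scrsh were listed at 1 of 15 alpha, 0 of 16 beta and 3 of 22 gamma genes, and those of HCT116/ABsh-1 at 0, 1 and 0. No region in any of the 4 lists was found at 35 of 53 members (66.0%, 52.6 to 77.3%), against 31.6% of all protein-coding genes. These were 15 of the 16 beta genes, all but PCDHB10, along with 7 alpha genes (PCDHA1 to PCDHA6 and PCDHAC1) and 13 gamma genes, of which PCDHGC4 was the only C-type gene.

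**Figure D1:**
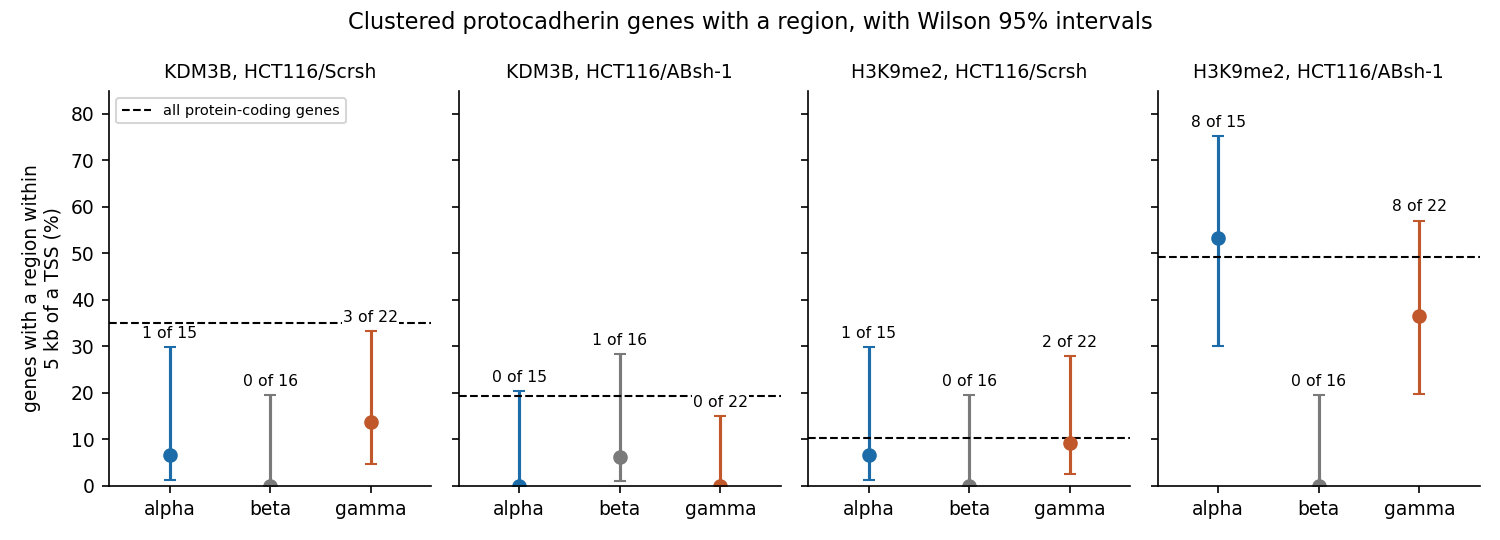
Share of the 15 alpha, 16 beta and 22 gamma genes with a region within 5 kb of a TSS (vertical axis, percent) in each of the 4 lists, with bars for the Wilson 95% interval and a dashed line for all 20163 protein-coding genes. With H3K9me2 in HCT116/ABsh-1, alpha lies at 53.3%, gamma at 36.4% and beta at 0, beside 49.2% of all protein-coding genes.

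Over the whole span of 740 kb, the lists held 7 KDM3B regions in control cells and 2 in depleted cells, and 5 H3K9me2 regions in control cells and 23 in depleted cells. Per Mb this was 9.46, 2.70, 6.76 and 31.1 regions in that order. The rest of chromosome 5 held 4.46, 2.07, 2.18 and 13.8 regions per Mb, and the genome 6.17, 2.81, 4.07 and 31.1. H3K9me2 regions covered 800 bases of the span in control cells (0.108%) and 5700 in depleted cells (0.770%), where the genome was covered to 0.0590% and 0.966%. Of the 5 H3K9me2 regions of HCT116/Scrsh, 4 shared bases with a region of HCT116/ABsh-1, against 35.4% of that list. None of the 7 KDM3B regions of HCT116/Scrsh shared a base with a KDM3B region of HCT116/ABsh-1, against 25.7% of the list, nor with an H3K9me2 region of HCT116/ABsh-1, against 0.533%. With equal numbers of regions per antibody, the span held 3 KDM3B regions in control cells against 2 in depleted cells, and 5 H3K9me2 regions against 2.

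**Figure D2:**
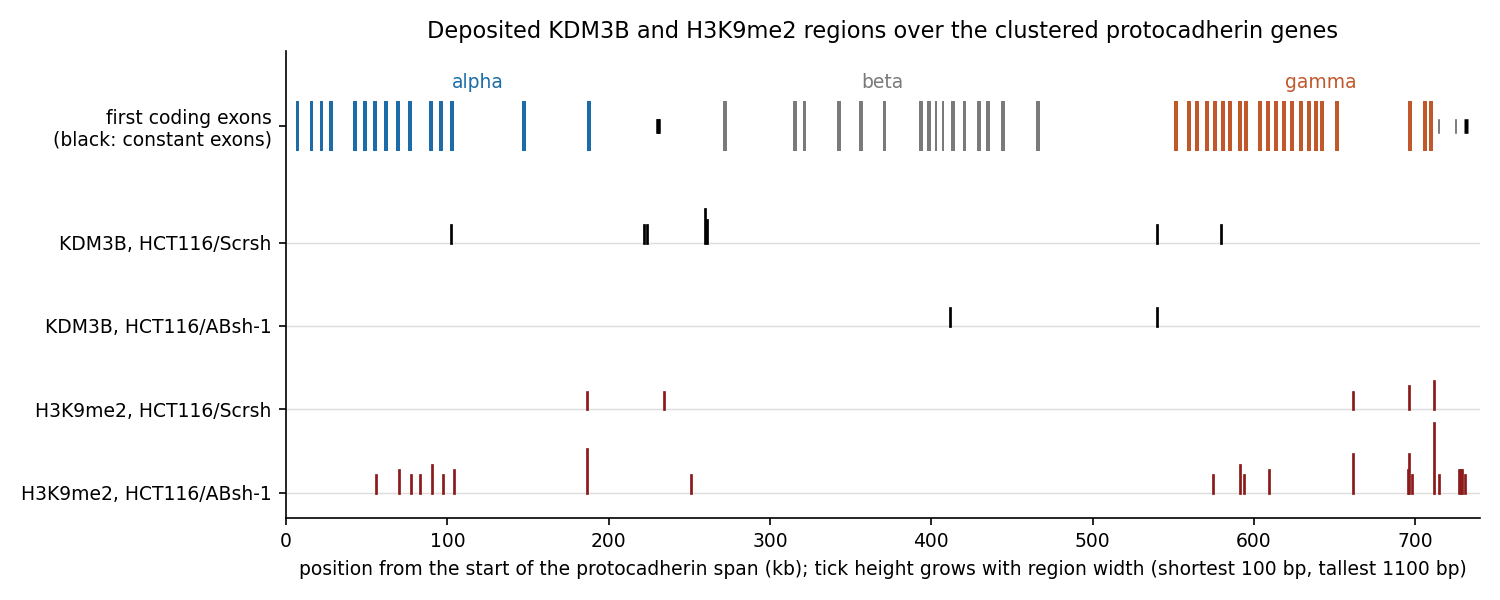
Map of the span (horizontal axis, kb from its start) with the first coding exons of alpha, beta and gamma genes, the shared constant exons in black, and a tick for each deposited region of the 4 lists, taller for wider regions. The 23 H3K9me2 regions of HCT116/ABsh-1 fall in and near the alpha and gamma clusters, and none lies over the beta cluster.

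Most of the H3K9me2 cover of the span lay in the large variable exons in HCT116/ABsh-1, but not in HCT116/Scrsh. The first coding exons of the 53 members make up 17.0% of the span and held 57.6% of the bases under H3K9me2 regions in HCT116/ABsh-1 (3284 of 5700) and 37.5% in HCT116/Scrsh (300 of 800). By centres, 13 of the 23 regions of HCT116/ABsh-1 and 2 of the 5 of HCT116/Scrsh lay in a first coding exon. The cover of these exons was 2.61% in HCT116/ABsh-1, below that of all coding bases of the genome (9.27%) and of all coding exons of at least 2000 bases (7.55%). In HCT116/Scrsh the same 3 values were 0.239%, 0.478% and 0.564%. A region touched the first coding exon of 13 of 53 members in HCT116/ABsh-1 (24.5%, 14.9 to 37.6%), while 31.1% of the 752 coding exons of at least 2000 bases were touched. In HCT116/Scrsh it touched 2 of 53 (3.77%), while 7.58% of the 752 were. The 53 include PCDHB16 (1628 bases) and PCDHB9 (1142 bases), whose first coding exons are below the limit of 2000 bases.

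Among the variable exons, those of the C-type genes had the most H3K9me2 cover. Their 5 exons had 1584 bases under H3K9me2 regions in HCT116/ABsh-1 (12.8%) and 300 in HCT116/Scrsh (2.43%). The other 13 alpha exons had 1000 bases (3.23%) in HCT116/ABsh-1, the 7 gamma exons of B type 500 (2.96%), the 12 gamma exons of A type 200 (0.685%) and the 16 beta exons 0, and all of these had 0 in HCT116/Scrsh. The C-type exons were not alike, since PCDHAC1 and PCDHGC4 had no region in any list. By cluster, the cover in HCT116/ABsh-1 was 4.45% in alpha, 0 in beta and 3.15% in gamma, and in HCT116/Scrsh 0.278%, 0 and 0.375%. With equal numbers of regions, the values for HCT116/ABsh-1 were 1.67%, 0 and 0.687%. This cover lay in PCDHAC2 and PCDHGC5 alone, the only members that then had a region in HCT116/ABsh-1. The gamma cover of 0.375% in HCT116/Scrsh lay in another exon, that of PCDHGC3.

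**Figure D3:**
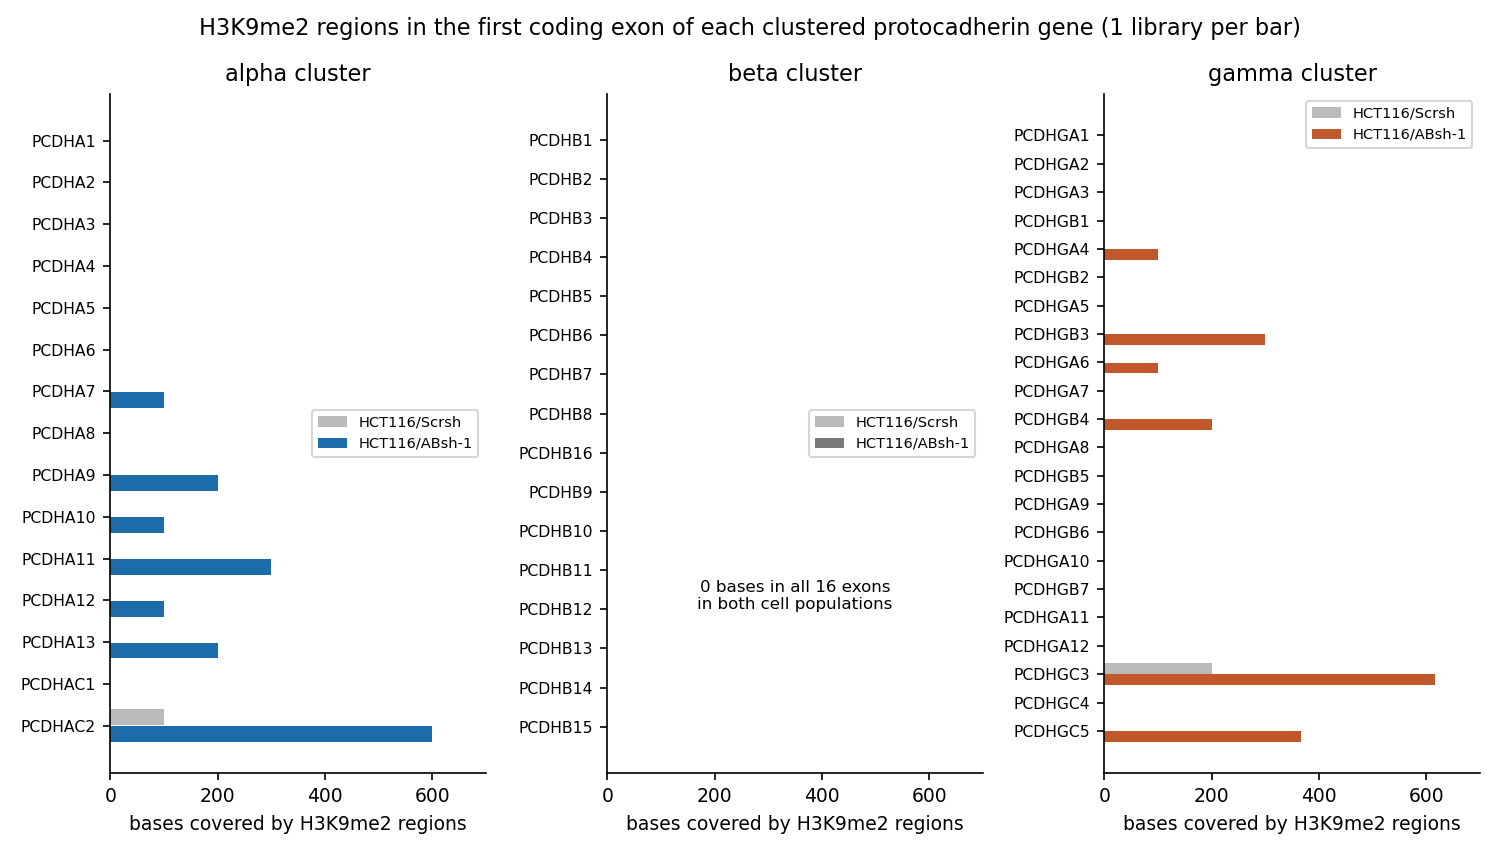
Bases under H3K9me2 regions in the first coding exon of each member (horizontal axis, bases) in HCT116/Scrsh (grey) and HCT116/ABsh-1 (colour), with 1 library per bar. PCDHGC3 (617 bases), PCDHAC2 (600) and PCDHGC5 (367) have the longest bars in HCT116/ABsh-1, and all 16 beta genes are at 0.

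PCDHAC2, the last gene of the alpha cluster before the constant exons, had an H3K9me2 region of 100 bp in HCT116/Scrsh, the one printed above, centred 689 bp after the canonical TSS. In HCT116/ABsh-1 a region of 600 bp (chr5:140346501-140347100) enclosed it, and 23.4% of the exon of 2565 bases was covered. The score of the wider region was above that of 87.3% of the regions in its list, and that of the narrower one above 45.8% in its own.

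PCDHGC3 had a region of 200 bp in HCT116/Scrsh, centred 767 bp after the TSS and lying within a region of 500 bp in HCT116/ABsh-1 (chr5:140856101-140856600). Further regions of 200 bp over the TSS (chr5:140855501-140855700) and of 100 bp near the end of the exon (chr5:140857901-140858000) were listed in HCT116/ABsh-1 only. Together 617 bases of the exon were covered in HCT116/ABsh-1, which is 25.4%, against 200 bases in HCT116/Scrsh.

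PCDHGC5, the last variable exon of the gamma cluster, had the widest region of the span. In HCT116/ABsh-1 it measured 1100 bp (chr5:140870901-140872000), held 95 CpG at a GC content of 65.4%, and scored above 97.3% of its list. It covered the last 367 bases of the exon and ran on into the intron, where it enclosed the region of 300 bp of HCT116/Scrsh. No base of the exon was covered in HCT116/Scrsh.

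Besides PCDHAC2, 6 alpha exons had H3K9me2 cover in depleted cells, all within the run from PCDHA7 to PCDHA13. PCDHA7 had 100 bases covered in HCT116/ABsh-1, PCDHA9 200, PCDHA10 100, PCDHA11 300, PCDHA12 100 and PCDHA13 200. None of these exons had a base covered in HCT116/Scrsh. The 6 regions scored above 23.7%, 52.1%, 35.5%, 60.6%, 19.6% and 51.1% of their list in that order. With equal numbers of regions, PCDHAC2 was the only alpha gene with an H3K9me2 region in HCT116/ABsh-1. PCDHA8, between PCDHA7 and PCDHA9, had no base of its exon covered and counts as a member with a region only because the one in PCDHA7 lies within 5 kb of its TSS. The exons of PCDHA7 to PCDHA13 were covered to 5.99%, and those of PCDHA1 to PCDHA6 to 0, at a median GC content of 58.0% against 57.4% and a median of 7.57 against 7.28 CpG per 100 bases. This split was drawn where the covered exons begin, so the cover of 0 was given in advance. The pseudogene PCDHA14, between PCDHA10 and PCDHA11, also held a region of 100 bp in HCT116/ABsh-1.

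The 6 regions of PCDHA7 to PCDHA13 were all near the end of the exon, centred between 79.9% of its length in PCDHA7 and 92.6% in PCDHA12. This part of the exon encodes the last extracellular repeat, the membrane-spanning stretch and the start of the cytoplasmic tail. Regions of different genes shared identical letters at nearly the same position, and the longest such stretch, of 41 bases, starts at base 2075 of the exon of PCDHA9 and at base 2072 of that of PCDHA11. Identical stretches also occurred in exons without a region. The stretch of 41 bases is in 6 alpha exons, of which PCDHA1, PCDHA2, PCDHA6 and PCDHA8 had no region over their exon. Another, of 28 bases, is common to the regions of PCDHA7 and PCDHA11 and is in 8 alpha exons, 3 of them among PCDHA1 to PCDHA6. It is also in the exons of PCDHA8, PCDHA9 and PCDHA13, where no H3K9me2 region held it. These stretches are shown with CpG in capitals, together with that shared by the regions of PCDHGB3 and PCDHGB4, which is also in PCDHGB5.
PCDHA9 and PCDHA11 (chr5:140230155-140230195 in PCDHA9 and chr5:140250760-140250800 in PCDHA11, plus strand): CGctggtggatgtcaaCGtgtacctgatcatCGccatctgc
PCDHA7 and PCDHA11 (chr5:140215824-140215851 in PCDHA7 and chr5:140250541-140250568 in PCDHA11, plus strand): gcatccCGttcCGCGtggggctgtacac
PCDHGB3 and PCDHGB4 (chr5:140751672-140751699 in PCDHGB3 and chr5:140769156-140769183 in PCDHGB4, plus strand): ggctctgCGctcttCGatatggtgcCGc

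In the gamma cluster, 4 exons other than the C-type had cover in HCT116/ABsh-1. PCDHGB3 had 300 bases and PCDHGB4 200, both B-type exons, with regions centred at 69.9% and 73.0% of the exon. PCDHGA4 and PCDHGA6, both A-type, had 100 bases each, near the start of the exon (3.02% and 4.13% of its length). PCDHGB2 and PCDHGA8 had a region within 5 kb of a TSS but none over the exon. The pseudogene PCDHGB9P held an H3K9me2 region in both cell populations, of 100 bp in control cells and 500 bp in depleted cells, outside any first coding exon. Past the variable exons, HCT116/ABsh-1 alone had regions at the first gamma constant exon (chr5:140874401-140874500), at 3 places in the intron before the last one and at the last one itself (chr5:140890501-140890600). The 3 intron regions and the one at the last constant exon lie within 5 kb of a further annotated TSS of PCDHGC3. They count among the 7 regions of that gene in HCT116/ABsh-1. The 3 intron regions had 5, 5 and 7 CpG in 200 bp each, fewer than any region of this width in a variable exon.

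Along the alpha variable exons, H3K9me2 cover was not highest where CpG were densest. Each exon was divided into 10 equal bins from its 5′ end. In the alpha cluster bins 8 to 10 held 1000 of the 1600 covered bases (62.5%), with 15.2% of bin 9 covered, while bins 6 and 7, with 8.98 and 11.8 CpG per 100 bases, had no cover. The share of 50-base words that occur once in the genome was 85.5% in bin 6 and 70.8% in bin 7, against 97.4 to 100% in bins 8 to 10. The cover in alpha bins 1 to 3 was that of PCDHAC2. In the gamma cluster bins 8 to 10 held 788 of 1684 covered bases (46.8%). Gamma bin 8, with the most CpG (7.80 per 100 bases), was covered to 6.01%, close to the highest gamma value of 6.47% in bin 10. The beta exons have a similar rise in GC content towards the end, up to 67.6% in bin 8 with 10.2 CpG per 100 bases, and no cover at any point.

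The exons of a cluster resemble each other, and this bears on which regions could be called, because the authors kept only reads of 50 bases that fit a unique position. The share of 50-base words of the exon that occur once in hg19 had a median of 90.3% over alpha genes, 76.9% over beta genes and 93.8% over gamma genes, and reached down to 53.2% at PCDHB8. All 5 C-type exons were at 100%. In the GC-rich bin 8, 32.3% of the words were unique in beta exons, 98.6% in alpha exons and 71.8% in gamma exons. Words were matched exactly, whereas the authors' mapping allowed mismatches, which leaves fewer unique ones.

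The exons were therefore compared in the 100-bp windows of the authors' grid. Of 1208 windows inside first coding exons, 32 lay under an H3K9me2 region of HCT116/ABsh-1, and these had a GC content between 55% and 72%, with a median of 65% against 56.0% over all windows. Of the windows with a GC content of at least 60% in which every word was unique, 13 of 97 were covered in alpha exons (13.4%, 8.0 to 21.6%) and 12 of 96 in gamma exons (12.5%, 7.30 to 20.6%). Beta exons had 126 windows of this GC content, but in only 18 of them was every word unique, and 0 of the 18 were covered, an interval of 0 to 17.6% that reaches past the alpha and gamma shares. Among all windows with unique words, 15 of 218 were covered in alpha (6.88%, 4.21 to 11%), 0 of 177 in beta (0 to 2.12%) and 14 of 414 in gamma (3.38%, 2.02 to 5.60%). Intervals cover counting error only, and neighbouring windows can lie under the same region, so windows are not independent and the intervals are too narrow. How far sequence uniqueness and GC content account for the empty beta cluster was not tested beyond these counts.

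**Figure D4:**
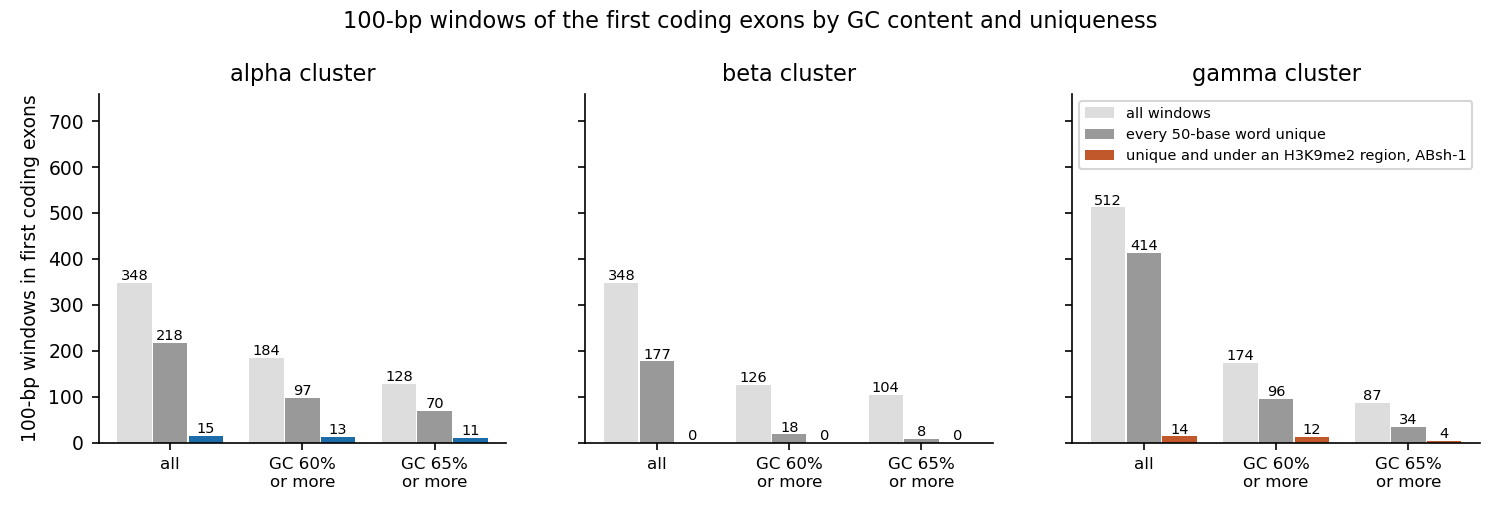
Numbers of 100-bp windows inside first coding exons (vertical axis), in all and at a GC content of at least 60% or 65%: all windows (light grey), windows in which every 50-base word is unique (dark grey) and those that also lie under an H3K9me2 region of HCT116/ABsh-1 (colour). At a GC content of at least 60%, 97 alpha, 18 beta and 96 gamma windows are unique, of which 13, 0 and 12 are covered.

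The KDM3B regions near members were narrow and low in rank. That in the variable exon of PCDHA13 measured 100 bp (chr5:140262301-140262400), was centred 641 bp after the TSS, and scored above 31.5% of its list. In HCT116/ABsh-1 an H3K9me2 region lay in the same exon, centred 2291 bp after the TSS. The region at PCDHGB2 (chr5:140739501-140739600) was centred 11 bp before the TSS and scored above 17.5% of its list, and it was the only KDM3B region within 5 kb of PCDHGA4 and PCDHGA5 as well. The region at PCDHB10 (chr5:140571801-140571900) was centred 76 bp before the TSS and scored above 39.7% of its own list. None of the 3 remained when regions of a single 100-bp window were left out.

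Both promoter regions cover a word around CGCT. That of PCDHB10 is 1 of the 3 words counted below, and that of PCDHGB2 differs from 1 of them by 1 letter. The word of PCDHGB2 (GTCGCTGT) starts 59 bp before the TSS and that of PCDHB10 (GGCGCTGC) 40 bp before it, each inside the KDM3B region. The words differ between clusters. Within 400 bases upstream of the first coding base and on either strand, TGTCGCTG was found at 7 alpha and 3 gamma genes and at 0.898% of all protein-coding genes, GGCGCTGC at 12 beta genes and PCDHAC1 (5.52%), and GCCGCTGT at 12 gamma genes (1.93%). At least 1 of the 3 words was present at 35 of 53 members, against 8.03% of all protein-coding genes. The words can overlap each other, and at PCDHAC1 the word starts 322 bp after the canonical TSS. With 1 letter outside CGCT allowed to differ, the counts were 48 of 53 against 39.3%, and the members without a match were PCDHA9, PCDHB1, PCDHB6 and the C-type genes PCDHAC2 and PCDHGC5. In genes that begin to code after their first exon, the 400 bases before the first coding base need not hold the promoter. The shares of all protein-coding genes are therefore not shares of promoters. A match is a description of the letters, and the words were chosen after the sequences had been seen. A word that matched exactly or with 1 letter differing was present at 48 of 53 members, whereas KDM3B regions covered it at 2.

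The remaining 6 KDM3B regions of the span lay away from the promoters of members. The pair with the highest ranks lay between the alpha and beta clusters, 27.8 kb (chr5:140419701-140420100) and 28.9 kb (chr5:140420801-140421000) past the end of the last alpha constant exon. They measured 400 and 200 bp, scored above 86.9% and 77.6% of the HCT116/Scrsh list, and stayed when single windows were left out. They lie on either side of the TSS of the non-coding gene ENSG00000288892, and neither was listed in HCT116/ABsh-1. Regions of 100 bp were listed at chr5:140381701-140381800 and chr5:140383901-140384000, in the intron between the last 2 alpha constant exons. Enhancers of the alpha cluster are known from this intron and from downstream of the last constant exon, but their coordinates were not in the sources used here and the regions were not matched to them. At TAF7, a subunit of the general transcription factor TFIID whose gene lies between the beta and gamma clusters, KDM3B regions of 100 bp were listed in both populations, directly next to each other, centred 209 bp after the nearest annotated TSS of the gene, which is not its canonical one, in control cells and 109 bp after it in depleted cells.

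Of the other protein-coding genes with a TSS in the span, SLC25A2, a mitochondrial carrier, and ENSG00000279983 had no region in any list. AC005609.1 had 1 H3K9me2 region in HCT116/ABsh-1, the one in PCDHA14. Outside the span, 12 non-clustered protocadherins, which are also adhesion proteins, had KDM3B regions at 4 genes in control cells and 3 in depleted cells, and H3K9me2 regions at 2 and 8. The shares of all protein-coding genes were 35.0%, 19.2%, 10.2% and 49.2% in the same order. PCDH10 had 300 bases under H3K9me2 regions in control cells and 1600 in depleted cells, and PCDH8 had 100 and 1300. PCDH1 and PCDH19 each had 0 and 1000 bases. Of 14 genes for regulators of the clusters, such as CTCF, cohesin subunits and DNA methyltransferases, 4 had a KDM3B region in HCT116/Scrsh (STAG1, SMC3, DNMT1 and DNMT3B) and 3 in HCT116/ABsh-1 (STAG1, STAG2 and DNMT1). H3K9me2 regions were listed at none of them in control cells and at 6 of 14 in depleted cells, where 10.2% and 49.2% of all protein-coding genes had one, with the most bases at the DNA methyltransferase genes DNMT3A (3500) and DNMT1 (2600), followed by DNMT3B (300). CTCF itself, SMCHD1, SETDB1, RAD21, WAPL and ZNF274 had no region in any list.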

How the data were processed

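Regions bound by KDM3B or marked by H3K9me2 were measured by ChIP-seq, with 1 library per antibody from HCT116/Scrsh (control) and 1 from HCT116/ABsh-1 (depleted) cells. The authors mapped reads of 50 bases to hg19 with Bowtie (version not given in the sources used here), kept those with a unique position and called 100-bp windows over input by a Poisson p-value. Their methods ask for neighbouring windows to pass together, but single windows of 100 bp stand in the lists. For each ChIP library they deposited a list in which every region has a score, a whole number of at least 2 whose meaning is not stated. The score served here for ranking inside a list and for nothing else. Peaks were called per library, and their depth is unknown.

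Regions were joined to GENCODE release 44 in its hg19 version, with windows of 5 kb on either side of every TSS of a gene and a shared base as the minimum overlap. For each member the first coding exon of the canonical transcript was taken, or the longest coding sequence for the 2 members without that tag. A 50-base word counted as unique where it occurs once in hg19 on either strand. Window and uniqueness counts were tested on simulated data. The members and gene lists were chosen with earlier results of these data known. The genes named are the members with a KDM3B region, those with an H3K9me2 region in HCT116/Scrsh, the 5 of each cluster with the most covered exon bases, the C-type members, those without a region, other genes of the span, 14 regulators and 12 non-clustered protocadherins. A further regulator is not reported here. Promoter words, exon bins, the GC classes of windows and the split of alpha exons after PCDHA6 were chosen after the data were seen. The genes named from shared letters or for having a region near their TSS but none in the exon lie outside the rule. Alternatives tried were the 50% of regions with the highest score, regions of 2 or more windows, lists cut to equal length, windows of 2 kb, the canonical or the nearest TSS only, region centres, merging below 1 kb, and exons extended by 1 kb upstream. Calculations used Python 3.11.15, numpy 2.4.6, scipy 1.17.1 and numba 0.67.0, and figures matplotlib 3.10.9.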

Additional observations from a re-analysis of the deposited data

How the results depend on the processing

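No paired analysis was possible because each condition had 1 library. Of 56 values recomputed under an alternative, 34 stayed within 1.5 times the reported value and 22 moved further. Some of the 34 could not move. A cut to equal length leaves the shorter list of each antibody as it was, and removing regions leaves a cover of 0 at 0. With the 50% of regions with the highest score, members with a region numbered 0 for KDM3B in HCT116/Scrsh, 0 for KDM3B in HCT116/ABsh-1 and 9 for H3K9me2 in HCT116/ABsh-1. The shares of all protein-coding genes were 21.1%, 9.94% and 37.0% in that order. The span then held 3, 1, 2 and 10 regions for KDM3B in HCT116/Scrsh and HCT116/ABsh-1 and H3K9me2 in HCT116/Scrsh and HCT116/ABsh-1. With regions of 2 or more windows, members with a KDM3B region numbered 0 in either population, against 21.1% and 9.17% of all protein-coding genes. The span held 2 and 0 KDM3B regions and 2 and 13 H3K9me2 regions in the same order of populations. With the lists of an antibody cut to equal length, KDM3B regions of HCT116/Scrsh were at 0 members and H3K9me2 regions of HCT116/ABsh-1 at 2. The shares of all protein-coding genes were 19.6% and 17.0%. The span held 3 and 2 regions of these lists. H3K9me2 cover of the variable exons in HCT116/ABsh-1 was then 1.67% in alpha, all in PCDHAC2, and 0.687% in gamma, all in PCDHGC5. With windows of 2 kb, KDM3B regions of HCT116/Scrsh were at 2 members and H3K9me2 regions of HCT116/ABsh-1 at 10, and with the nearest canonical TSS only, KDM3B regions of HCT116/Scrsh were at 2. No share of all protein-coding genes is given for these 2 settings, so the counts cannot be set beside one. Beta exons had no H3K9me2 cover under the 4 alternatives run for it. Only the extension by 1 kb upstream could have added cover, since the others only remove regions. Depth is unknown in all 4 libraries, so lists of unequal length cannot be told apart from libraries of unequal depth.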
